A study of Mus musculus with 2 samples.

Results

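The genes described here encode the machinery that cleaves and polyadenylates messenger RNA precursors and the Integrator complex, which cleaves small nuclear RNA precursors and attenuates transcription by RNA polymerase II. The set was given as 38 gene symbols, and all 38 were found among the 22180 named genes of the arrays. Each gene was read from the feature (a transcript cluster of the array) that carries exactly 1 gene symbol and has the highest mean over both arrays. For 37 members there was only 1 such feature, and Papolg had a further one.

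The samples were alveolar macrophages, the resident macrophages of the air spaces, taken from mouse lungs by flow cytometric sorting at an age of 8 to 10 weeks, with 6 ug of total RNA used for labelling. The control array came from Lysm-Cre mice, and the other array from mice labelled Lysm-Cre Ssu72fl/fl. Both genotypes carry Lysm-Cre, which places Cre recombinase under the lysozyme 2 locus and is active in myeloid cells in general; neither a Cre-free group nor other tissues were analysed here. There was 1 Affymetrix array per genotype, the number of mice behind each array is not stated in the labels, and no replicate error or test between genotypes exists. Each difference is the log2 value in the sample labelled Ssu72fl/fl less that in the control. The targeted gene Ssu72 read 4.86 in the control sample and 4.998 in the other, a difference of 0.14, so it was not lower where its label says it is floxed. Where its probes lie relative to the floxed part is not stated in the labels, and every direction given here rests on the label alone.

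Messenger RNA 3′ ends are made in the nucleus by CPSF, which recognises the AAUAAA signal and cuts the precursor, together with CstF, which binds downstream U- or GU-rich sequence, and the cleavage factors CFIm and CFIIm. A poly(A) polymerase then adds the tail, poly(A) binding proteins coat it, and the exonuclease Xrn2 degrades the RNA still attached to the polymerase, which ends transcription. Integrator holds an endonuclease, Ints11, that is a relative of the CPSF endonuclease Cpsf3. Ssu72, the gene floxed in this design, encodes a phosphatase of the polymerase C-terminal domain that works with the scaffold protein symplekin (Sympk). The question addressed here is how Sympk and the other genes of the set read on the 2 arrays.

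Where a promoter entry existed, the members had CpG-rich upstream sequence. In RefSeq (GRCm38.p6), 31 of the 38 members had an entry, and in the 250 bases before the annotated start the median count of CpG dinucleotides was 22, from 8 for Ints4 to 40 for Scaf8. The median was 10 over 17491 protein-coding genes and 6 over all 27025 genes with an entry. The median GC content was 62.0% for the members, 55.2% for protein-coding genes and 52.0% for all. The letters GGGCGG, the GC box, stood on either strand in 18 of 31 member promoters (58.1%), against 42.7% of protein-coding and 32.9% of all promoters of the same length. CCGGAAG, a core bound by ETS factors, stood in 6 (19.4%, against 9.12% and 7.05%), and CCAAT in 12 (38.7%, against 36.3% and 34.5%). TATAAA stood in 1, that of Pabpc4 (3.23%, against 12.4% and 12.97%), and AAGATGGC, a YY1 core, in 1, that of Cstf1 (3.23%, against 1.51% and 1.587%). The GC box can overlap the other GC-rich motifs, and these matches are descriptions of letters, not of binding.

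The 150 bases upstream of the outermost annotated start are shown for Sympk and Ints1, which read lower on the array labelled Ssu72fl/fl, and for Ints3, which read higher, with every CpG in capitals. The stretches hold 24 CpGs for Sympk, 6 for Ints1 and 12 for Ints3. Candidates for printing were the members beyond the spread of genes of like signal and above the floor on both arrays, as defined below. The stretches lie at chr7:19024227-19024376 on the plus strand (Sympk), chr5:139775703-139775852 on the minus strand (Ints1) and chr3:90433637-90433786 on the minus strand (Ints3) of GRCm38.p6. None of the 3 overlaps an annotated RefSeq gene, whereas the windows of Cpsf3, Cpsf7 and Scaf8 overlap the neighbouring genes Itgb1bp1, Sdhaf2 and A230045G11Rik and are not shown. Ints10 had no promoter entry.
Sympk: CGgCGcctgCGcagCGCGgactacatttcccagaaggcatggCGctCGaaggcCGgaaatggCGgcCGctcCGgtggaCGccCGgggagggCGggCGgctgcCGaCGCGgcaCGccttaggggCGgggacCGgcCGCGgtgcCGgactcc
Ints1: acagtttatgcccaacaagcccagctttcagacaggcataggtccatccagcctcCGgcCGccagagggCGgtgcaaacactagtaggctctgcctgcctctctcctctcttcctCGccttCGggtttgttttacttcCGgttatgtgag
Ints3: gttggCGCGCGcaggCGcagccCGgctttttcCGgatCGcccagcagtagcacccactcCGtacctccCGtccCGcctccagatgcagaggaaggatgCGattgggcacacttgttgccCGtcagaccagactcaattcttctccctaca

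Across the set the differences were small and more often negative than positive. Of the 38 members 26 were lower and 12 higher on the array labelled Ssu72fl/fl, that is 68.4% lower, against 48.9% of all 22180 named genes and 46.6% of the 17144 other named genes within the members' range of mean level. The median difference was -0.052, against 0.0036 over all named genes and 0.0075 over those of the same range. Members ran from -0.28 for Sympk to 0.16 for Ints3. None of the 38 was 1.5-fold different in either direction, whereas this fold was reached by 0.803% of all named genes on the lower side and by 0.185% on the higher side; values under the floor, the median of all values on both arrays (4.65), were set to it before a fold was taken. The largest difference, that of Sympk, was 1.21-fold.

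**Figure D1:**
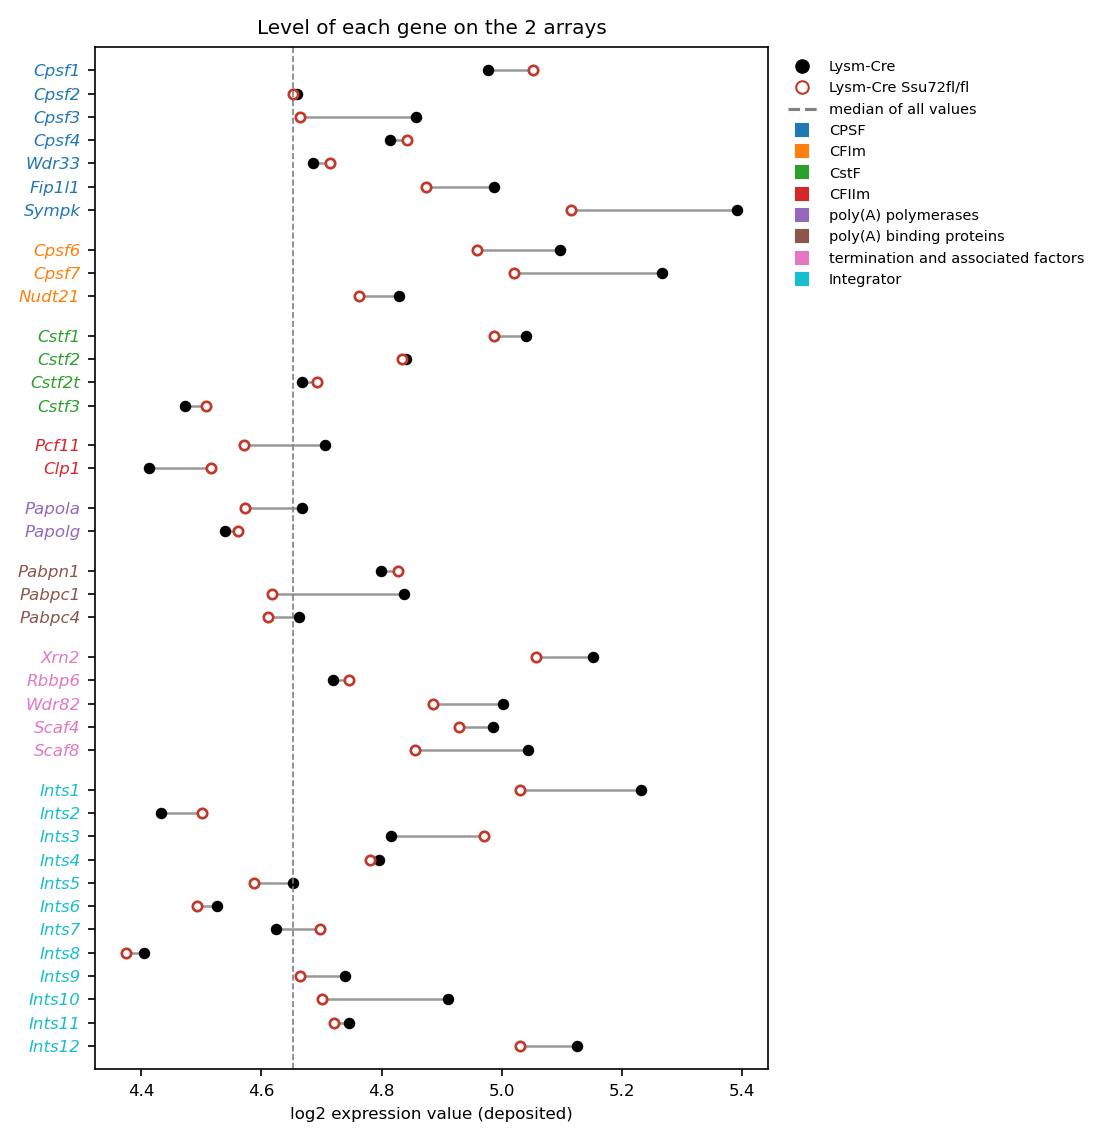
Deposited log2 expression value (horizontal axis) of each of the 38 genes on the Lysm-Cre array (filled black) and the array labelled Lysm-Cre Ssu72fl/fl (open red), grouped by complex; the dashed line is the median of all values, 4.65. The open symbol lies to the left of the filled one for 26 genes, and most genes lie close to the dashed line.

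All members had low signal on this scale, which bounds what the differences can show. Mean levels ran from 4.39 (Ints8) to 5.25 (Sympk), where all features ran from 4.23 to 13.5. On both arrays 26 members were above the floor, 5 were above it on the control array only (Pcf11, Papola, Pabpc1, Pabpc4 and Ints5), 1 on the array labelled Ssu72fl/fl only (Ints7), and 6 were below it on both (Cstf3, Clp1, Papolg, Ints2, Ints6 and Ints8). Over the 28 members whose mean was above the floor, a filter that does not pick a direction, 20 were lower (71.4%), against 52.7% of the 12040 named genes that passed the same filter, and the median was -0.061, against -0.010.

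Because the difference between the arrays varied with signal, each member was also compared with the named genes outside the set that lay nearest to it in mean level, a fixed number equal to 0.908% of them. The level-adjusted difference is the difference less the median of those genes, and its yardstick is their robust SD (scaled median absolute deviation), which describes scatter between genes and not between mice. The medians of these gene sets lay close to 0, from -0.013 to 0.022, so that the adjustment hardly moved the members: after it 26 read lower and 12 higher, and their median was -0.051. Over all 22180 named genes the adjusted value was lower in 11101. Ssu72 had a level-adjusted value of 0.13 against a robust SD of 0.14. Beyond 1 robust SD lay 9 members on the lower side (Cpsf3, Sympk, Cpsf7, Pcf11, Papola, Pabpc1, Scaf8, Ints1 and Ints10), or 23.7%, against 16.0% of all named genes, and 3 on the higher side (Clp1, Ints2 and Ints3), or 7.89%, against 16.7%; Clp1 and Ints2 were below the floor on both arrays. The other 26 members lay inside the spread of genes of like signal.

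**Figure D2:**
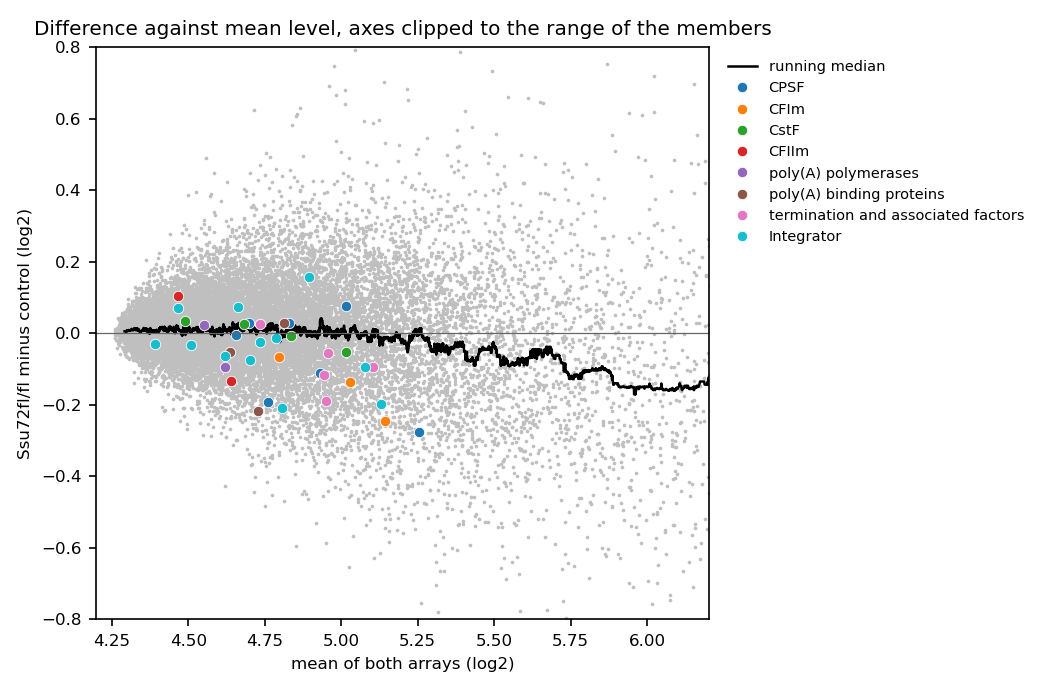
Difference in log2 value between the arrays (vertical axis) against the mean of both arrays (horizontal axis) for all named genes (grey), with the 38 members coloured by complex and the running median of the other named genes in black; genes outside the axes are not drawn. The members lie within the grey cloud, and 26 of the 38 fall below 0.

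In CPSF, the complex that recognises the poly(A) signal and makes the cut, 4 of 7 genes read lower and the other 3 higher (median difference -0.0068). Sympk, the scaffold that joins CPSF to CstF and binds Ssu72, read 5.39 in the control and 5.12 in the other sample (-0.28). Of the genes of like signal 7.96% had a lower difference, and its level-adjusted value was -0.27 against a robust SD of 0.20. Cpsf3, the endonuclease that makes the cut, read 4.86 and 4.66 (-0.19), with 4.98% of genes of like signal lower and a level-adjusted value of -0.21 against 0.10.
Sympk and Cpsf3 both belong to the part of CPSF that cleaves, but whether the parts of CPSF differ was not tested. Their partner in the cleaving part, Cpsf2, a catalytically inactive relative of Cpsf3, read 4.66 and 4.65 (-0.0068), inside the spread of 0.091. Fip1l1, which recruits poly(A) polymerase, read 4.99 and 4.87 (-0.11, level-adjusted -0.12), just inside its spread of 0.13.
The remaining CPSF genes, which include the subunits that read the AAUAAA signal, had small positive differences, all inside the spread of genes of like signal. Cpsf1, the largest subunit and a scaffold, read 4.98 and 5.05 (0.075), inside a spread of 0.16. Cpsf4, a zinc finger protein that contacts the signal, read 4.81 and 4.84 (0.029, level-adjusted 0.021 against a robust SD of 0.13). Wdr33, which also contacts the signal, read 4.69 and 4.71 (0.028, level-adjusted 0.013 against 0.0995).

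The 3 genes of CFIm, which binds UGUA elements upstream of poly(A) sites and affects which site is used, were all lower, with a median of -0.14. Cpsf7 read 5.27 and 5.02 (-0.25), with a level-adjusted value of -0.23 against a robust SD of 0.17 and 11.9% of genes of like signal lower. Cpsf6, its relative in the alternative form of the complex, read 5.10 and 4.96 (-0.14), inside its spread of 0.15 with 19.9% of such genes lower. Nudt21, the subunit that binds the RNA, read 4.83 and 4.76 (-0.067), inside its spread of 0.11. For Cpsf7 a further feature, which shares the symbol with another gene, had a smaller difference, reading 4.82 and 4.77 (-0.054).

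CstF was divided, 2 genes being lower and 2 higher (median 0.0089). Cstf1 read 5.04 and 4.99 (-0.053) and Cstf2, the subunit that binds RNA downstream of the cut, 4.84 and 4.83 (-0.0069). Its autosomal copy Cstf2t read 4.67 and 4.69 (0.025). Cstf3, which holds the complex together, was below the floor on both arrays, at 4.47 and 4.51. All 4 lay inside the spread of genes of like signal.

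The other factors that act at the cut or on the tail had members at both ends. Pcf11, the CFIIm subunit that binds the polymerase C-terminal domain and promotes termination, read 4.71 and 4.57 (-0.13, level-adjusted -0.14 against a robust SD of 0.098). Its CFIIm partner Clp1, an RNA kinase, lay below the floor on both arrays at 4.41 and 4.52, with a level-adjusted value of 0.090 against 0.053. The pair therefore lay on opposite sides, with 7.96% and 92.0% of genes of like signal lower than them.
The poly(A) polymerase gene Papola read 4.67 and 4.57 (-0.096, level-adjusted -0.11 against 0.084). Its relative Papolg read 4.54 and 4.56, below the floor on both arrays, and its further feature 4.38 and 4.41. The differences of Papolg on these features were small, 0.022 and 0.038. After level adjustment the first of them was 0.0032, inside its spread of 0.072.
Pabpc1, the main cytoplasmic poly(A) binding protein, had the most extreme position of all 38 members: it read 4.84 and 4.62 (-0.22), and 3.48% of genes of like signal had a lower difference. Its level-adjusted value was -0.22 against a robust SD of 0.099. Its value on the array labelled Ssu72fl/fl lay under the floor of 4.65.
Pabpc4, another cytoplasmic member of the family, read 4.66 and 4.61 (-0.052), inside its spread of 0.094. Further features that share the Pabpc4 symbol with another gene read 5.47 and 5.55 (0.080) and 5.54 and 5.02 (-0.52), so the direction for Pabpc4 rests on the choice of feature. Pabpn1, the nuclear protein that controls tail length, read 4.80 and 4.83 (0.028), inside its spread of 0.12.

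Of the 5 termination and associated factors 4 read lower and 1 higher (median -0.094). Scaf8, which binds the polymerase C-terminal domain and suppresses the use of early poly(A) sites, read 5.04 and 4.86 (-0.19), with a level-adjusted value of -0.20 against a robust SD of 0.15. Its relative Scaf4 read 4.99 and 4.93 (-0.056), inside its spread of 0.14. Wdr82, an adaptor found with the phosphatase PP1 and with the histone methyltransferase Setd1a, read 5.001 and 4.88 (-0.12), inside its spread of 0.15.
Scaf8 was thus the only member of this group beyond the spread of genes of like signal. The exonuclease gene Xrn2 read 5.15 and 5.06 (-0.094), inside its spread of 0.16. Rbbp6, a ubiquitin ligase that activates cleavage, read 4.72 and 4.75 (0.026).

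**Figure D3:**
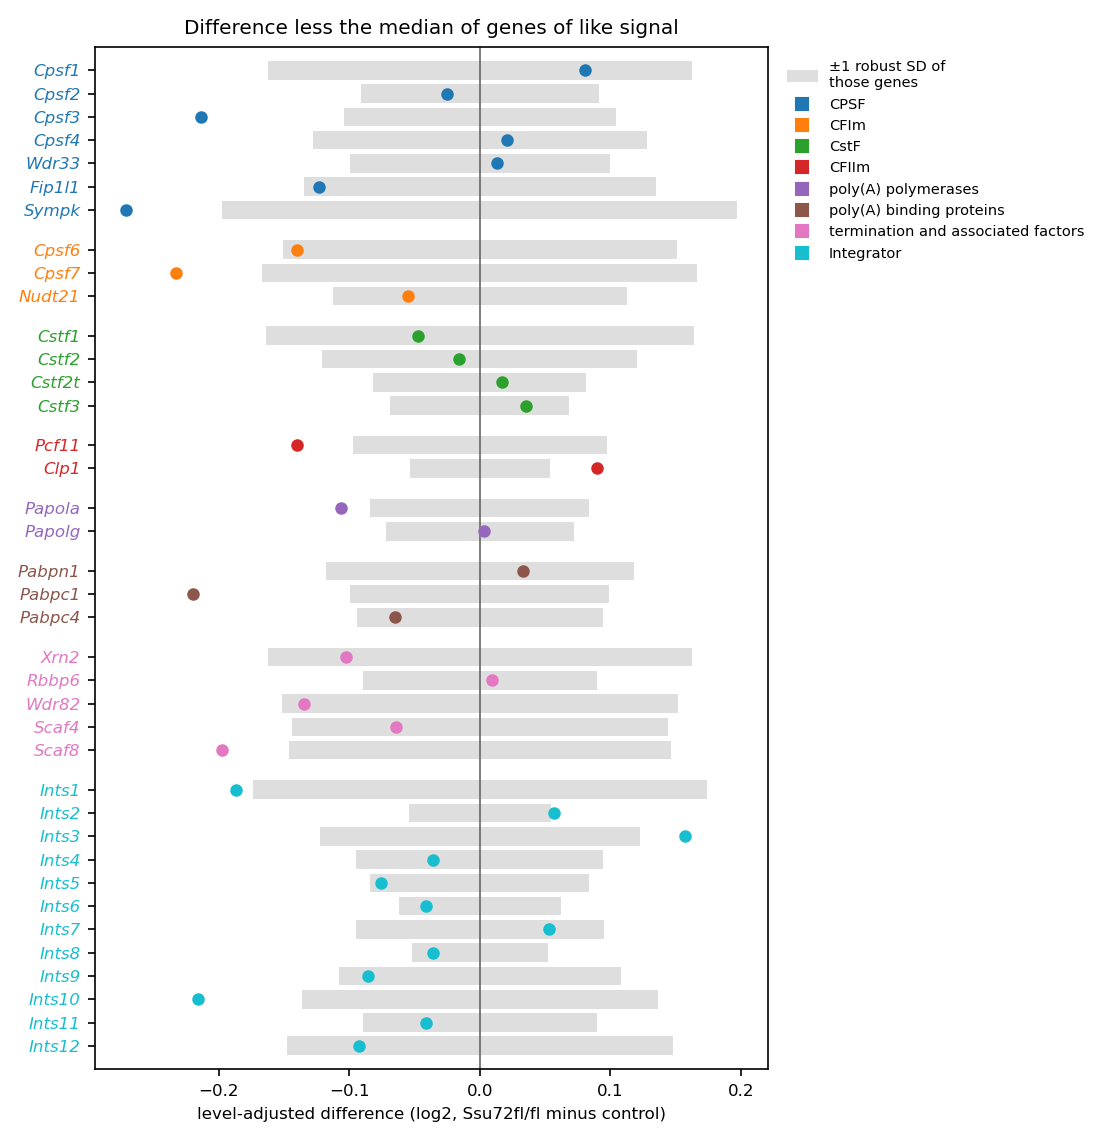
Level-adjusted difference (log2, horizontal axis) of each of the 38 genes, coloured by complex; the grey bar is plus and minus 1 robust SD of the named genes nearest in mean level. There are 9 genes to the left of their bar and 3 to the right, and Pabpc1 and Cpsf3 lie more than 2 robust SDs to the left.

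Of the 12 Integrator genes 9 read lower and 3 higher, and their median difference was -0.033 (level-adjusted -0.041). Of all named genes 48.9% read lower. Beyond 1 robust SD lay 2 Integrator genes on each side, or 16.7% each. Among all named genes 16.0% lay beyond it on the lower side and 16.7% on the higher. The Integrator shares beyond the spread were thus near those of all genes. Ints10, of the arm of the complex, read 4.91 and 4.70 (-0.21), with 4.48% of genes of like signal lower and a level-adjusted value of -0.22 against a robust SD of 0.14. Ints1, the largest scaffold subunit, read 5.23 and 5.03 (-0.20), just beyond its spread (level-adjusted -0.19 against 0.17). Ints12, which binds Ints1, read 5.12 and 5.03 (-0.095), inside its spread of 0.15.
Ints3, shared with the SOSS complex of single-stranded DNA repair, had the highest difference of all members, on the deposited scale and after level adjustment. It read 4.82 and 4.97 (0.16), with 86.1% of genes of like signal lower and a level-adjusted value of 0.16 against 0.12; by position among genes of like signal Clp1 stood higher, at 92.0%, though below the floor. Ints2, of the backbone, was also beyond its narrow spread of 0.054 on the higher side (0.057 level-adjusted), but both of its values, 4.43 and 4.502, lay under the floor.
The subunits of the cleavage module were inside the spread of genes of like signal. The endonuclease gene Ints11 read 4.75 and 4.72 (-0.024), its inactive relative Ints9 4.74 and 4.66 (-0.076), and Ints4, the scaffold of that module, 4.80 and 4.78 (-0.014). Ints11 is also a chromosomal neighbour of the floxed gene: both lie on chromosome 4, with 12 protein-coding genes between them in RefSeq.
Ints6 and Ints8, the subunits that bind the phosphatase PP2A, lay below the floor on both arrays, at 4.53 and 4.49, and at 4.41 and 4.37. Of the backbone subunits, Ints5 read 4.65 and 4.59 (-0.064) and Ints7 4.62 and 4.70 (0.074), both inside their spread. Outside Integrator, 17 of the 26 members were lower.

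Genes related by pathway but outside the set, 106 in 10 lists of which 96 were matched, were also lower more often than higher: 57 of 96 were lower (59.4%), against 48.9% of all named genes and 52.7% of those with a mean above the floor, with a median of -0.040 (level-adjusted -0.043). Beyond 1 robust SD lay 17 on the lower side (17.7%, against 16.0% of all named genes) and 10 on the higher side (10.4%, against 16.7%), so that the share on the lower side was near that of all genes. The genes named at the ends of each list are ordered by the level-adjusted difference; Tob2, Tent4a and Ppp1ca were added after their values were seen. With 1 array per genotype, whether the lists differ from one another was not tested.
Regulators of poly(A) site choice had the lowest median of these lists, -0.15 (level-adjusted -0.11), with 9 of 11 lower (81.8%, against 48.9% of all named genes) and 5 of 11 beyond the spread on the lower side (45.5%, against 16.0%). The lowest were 2 proteins of the U1 small nuclear ribonucleoprotein, which protects transcripts from premature cleavage: Snrnp70 read 6.40 and 5.64 (-0.76, level-adjusted -0.61 against a robust SD of 0.27), and Snrpc 5.74 and 5.25 (-0.50, level-adjusted -0.47 against 0.22). At the other end stood Cpeb2 (0.0015) and Thoc5 (-0.065).
Pausing and elongation factors were lower in 7 of 8, all inside the spread, from Supt5 (-0.20), the DSIF subunit through which pausing is controlled, and Larp7 (-0.14) to Nelfe (-0.0093) and Supt6 (0.072). CCR4-NOT and other deadenylase genes, whose products shorten tails, were lower in 10 of 14, from Cnot9 (-0.18, level-adjusted -0.19 against 0.086) and Cnot2 (-0.18, level-adjusted -0.18 against 0.12) to Cnot10 (0.12) and Cnot4 (0.13). Without the adjustment Tob2 was the lowest of this list (-0.20), with a level-adjusted value of -0.16 inside its spread of 0.19.
Termination cofactors, lower in 7 of 11 and in 6 of 11 after level adjustment, had 3 genes beyond the spread on each side. That is 27.3% each, against 16.0% of all named genes on the lower side and 16.7% on the higher. Zc3h4, a Wdr82 partner that restricts non-coding transcription, read 5.36 and 5.04 (-0.32, level-adjusted -0.29 against 0.18). Of the 3 catalytic PP1 genes 2 lay on opposite sides, Ppp1cb at 4.85 and 4.61 (-0.24) and Ppp1cc at 4.78 and 5.10 (0.33), both beyond their spread of 0.10 and 0.14. The third, Ppp1ca, had the highest signal of them at 6.66 and 6.50 (-0.16), and its level-adjusted value of 0.059 lay inside its spread of 0.32. Rprd2 was higher too (0.13).
Nuclear exosome and NEXT genes, which degrade nuclear RNA, were lower in 7 of 13, from Exosc1 (-0.26, level-adjusted -0.26 against 0.13) and Exosc10 (-0.31, just inside its spread) to Dis3 (0.10) and Exosc9 (0.12). Beyond the spread lay 4 of 13 on the lower side (30.8%, against 16.0% of all named genes) and 1 on the higher (7.69%, against 16.7%).

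**Figure D4:**
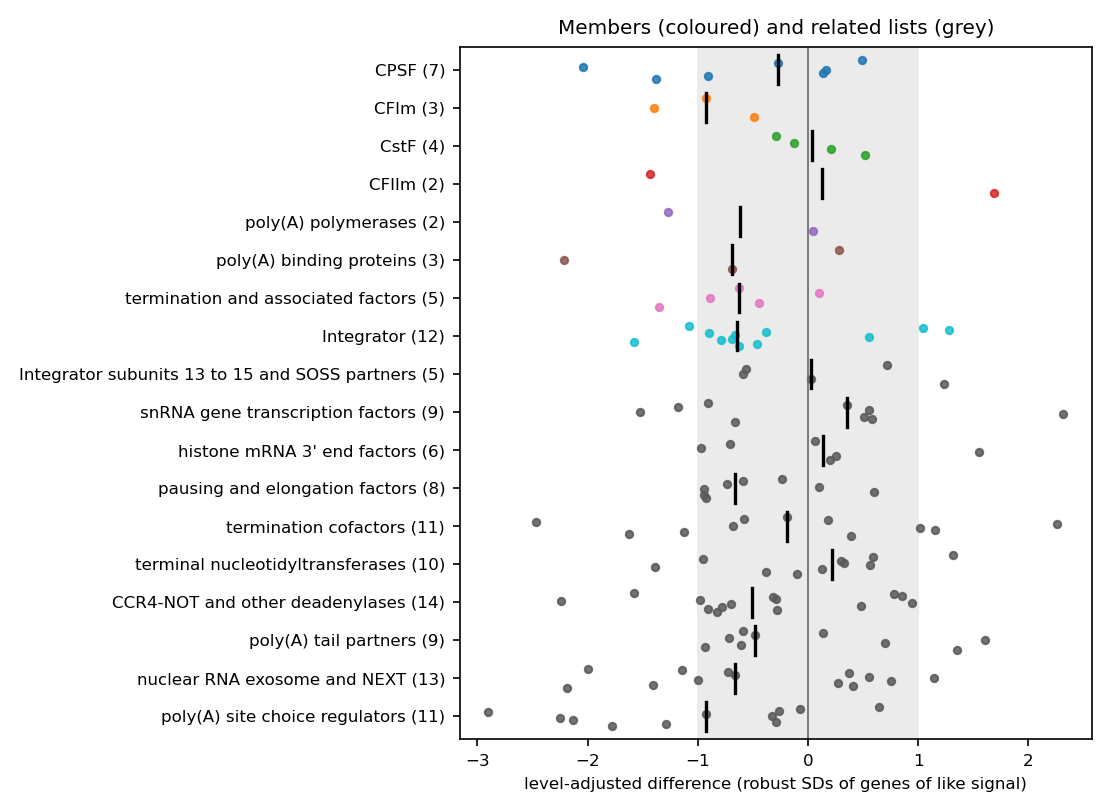
Level-adjusted difference of each gene in units of the robust SD of genes of like signal (horizontal axis), for the 8 groups of members (coloured) and 10 related lists (dark grey); the black tick is the group's median, the shaded band is 1 robust SD, and the number of genes is in brackets. CFIm and the regulators of poly(A) site choice have medians near the lower edge of the band, and most points of the other groups lie inside it.

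The other lists had median differences between -0.0355 and 0.049. Partners of Integrator were lower in 2 of 5, with Nabp1 (-0.43, level-adjusted -0.17 against a robust SD of 0.29) and Ints14 (-0.043) lowest and Ints13 (0.093) and Nabp2 (0.015) highest. Transcription factors of small nuclear RNA genes were lower in 4 of 9, from Ell2 (-0.63, level-adjusted -0.19 against 0.29) and Snapc3 (-0.10) to Snapc4 (0.064) and Ell (0.088). Factors for the 3′ ends of histone transcripts were lower in 2 of 6, from Lsm10 (-0.25, level-adjusted -0.17 against 0.24) and Lsm11 (-0.11) to Eri1 (0.044) and Casp8ap2 (0.026).
Terminal nucleotidyltransferases, which extend RNA ends outside the main pathway, were lower in 4 of 10, from Tut7 (-0.18, level-adjusted -0.16 against 0.12) and Tent5c (-0.018) to Tent4b (0.026, level-adjusted 0.064) and Tut1 (0.092, level-adjusted 0.085). Tent4a had a larger difference than Tent4b before the adjustment (0.065) and a smaller one after it (0.048). Poly(A) tail partners were lower in 5 of 9. Larp4 (-0.11) and Paip2 (-0.10), an inhibitor of Pabpc1, were lowest among them, and Larp1, a repressor of ribosomal protein translation, was highest at 6.09 and 6.39 (0.29, level-adjusted 0.44 against 0.33).

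Facts of the arrays as a whole bear on these values. Features with a mean level of 6 to 10 had a median difference of -0.34, but the members all lie under that range. The alveolar macrophage markers read 5.06 (Fabp4) to 10.23 (Lyz2) on the control array over 11 matched of 12, and 10 of 11 were lower (median -0.30). Fabp4 and Siglecf (5.18) thus had signal as low as that of members, while Sftpc, a marker of alveolar type 2 epithelium, read 8.71 there. After level adjustment 6 of 11 were lower, with 2 beyond the spread on each side (18.2% each). Of all named genes 16.0% lay beyond the spread on the lower side and 16.7% on the higher, the shares to set beside the marker counts below.
Of the marker lists of other cells, that of interstitial macrophages and monocytes had the largest share beyond the spread of genes of like signal. All 7 matched interstitial macrophage and monocyte markers were lower, 6 beyond the spread, with a mean level of 5.51 on the control array (range 4.76 to 6.49) and 5.18 on the other (4.52 to 5.86). Alveolar type 2 markers were lower in 7 of 8, 1 beyond the spread (mean level 5.82 and 5.64, ranges 4.70 to 8.71 and 4.74 to 8.35), and 6 of 8 were lower after level adjustment. Neutrophil markers were lower in 5 of 6 (4.83 and 4.78), with 1 beyond the spread on each side. Endothelial markers were lower in 4 of 4, 2 beyond the spread (5.21 and 5.04). B cell markers were lower in 3 of 4 (5.46 and 5.35), with 0 beyond the spread on the lower side and 1 on the higher. Their mean level rests largely on Ighm, at 7.46 and 6.88 (-0.58), where the next highest, Cd79a, read 4.98 and 5.15. Genes of dividing cells were lower in 4 of 5, 1 beyond the spread (4.87 and 4.81). T cell markers were lower in 2 of 6, and 3 were higher beyond the spread (4.71 and 4.88); without Lat, which differed by 0.68, the mean level of the other 5 was 4.68 and 4.74. No marker was at 0, since the lowest value on the arrays is 4.23. The part of these cells in the values of the members was not tested, and in such bulk samples fewer cells of a type and less RNA per cell cannot be told apart.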

How the data were processed

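The deposited table holds 1 log2 expression value of the authors per feature (33793 features); the log2 scale was inferred from their range. MAS5 is named, without a role, per the submitters' processing notes; background correction, normalization, offset and genome build are not stated in the labels. If an offset was added, the differences understate fold changes, mostly of dim features. Features were named from the platform annotation (23521 with 1 symbol, 1814 with several, 8458 with none), and symbols were updated through the Entrez identifier to RefSeq (GRCm38.p6).

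The fold threshold was 1.5, the floor the 50th percentile of all values, and each gene was set against the nearest 0.908% of named genes, members left out. Named were Ssu72, every member, and up to 2 genes at each end of the level-adjusted difference in each related list, among those with a mean above the floor. The members and lists were chosen with earlier results of these data known. Alternatives covered centring, quantile normalization, a lowess trend (span 0.3), feature choice, floors, folds and neighbours. With 1 array per genotype no test was made; the number of arrays limits the precision. Python 3.11.15, pandas 2.3.3 and statsmodels 0.14.6 were used.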

Additional observations from a re-analysis of the deposited data

How the results depend on the processing

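The direction of the set held under every alternative run: the median difference lay between -0.064 (median centring) and -0.044 (features with several symbols used). Of 38 members 25 or 26 were lower with each scaling and feature choice, and 20 of 28 when restricted to those with a mean above the 50th percentile. No member passed 1.5-fold, nor the lower and the higher fold tried, nor 1.5-fold with a floor at either of the other percentiles, the 25th and the 75th. Members beyond 1 robust SD numbered 9 to 11 on the lower side over all 38 members with any set of neighbours, among them protein-coding genes only (11 lower, 2 higher), an alternative chosen after seeing the data. Of the members beyond the spread, the restriction to a mean above the 50th percentile removed Pcf11, Papola, Clp1 and Ints2, which lie under it. The lower side then went from 9 to 7 and the higher side from 3 to 1. Ints2 was beyond the spread in 6 of 10 settings. Fip1l1 was in 4 of 11, Cpsf6 in 1 of 11 and Ints1 in 10 of 11. The sign of 1 member changed, that of Pabpc4 when features with several symbols were used (0.080). No paired analysis was possible because each genotype has 1 array. Low signal limits what can be read. The robust SD of genes of like signal was 0.052 for Ints8, the lowest member in mean level, and 0.20 for Sympk, the highest. Whether differences near the floor are compressed was not tested.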

Other observations

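Small nuclear RNAs of the U11, U12 and U5 type are substrates of Integrator; the 3 genes named for them on the arrays were chosen after their values were seen. Rnu11 read 9.71 in the control and 9.25 where labelled Ssu72fl/fl (-0.46, level-adjusted -0.030 against a robust SD of 0.29), Rnu12 9.34 and 9.37 (0.032, level-adjusted 0.46 against 0.29), and Rnu5g 4.41 and 4.33, below the floor on both arrays. Relative to genes of like signal, Rnu12 was higher beyond the spread and Rnu5g lower beyond it, and Rnu11 lay inside it. The comparison is coarse at high signal. Lyz2, at a mean level of 9.99, had the same median (-0.43) and robust SD (0.29) of such genes as Rnu12, at 9.36.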
